A study of Mus musculus with 4 samples.

Results

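The genes of the translation initiation factors (eIF) and elongation factors (eEF) were described in blood monocytes and neutrophils of the mouse. Members were the protein-coding entries whose symbol begins with Eif or Eef and a digit. Eif2s3x and Eif2s3y, the X- and Y-linked genes of the gamma subunit of eIF2, were left out. The rule gave 65 genes of 43346 with a gene identifier, of which 21474 were protein-coding. The rule uses names and no values, but the gene family was chosen with earlier results of these data known.

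The study collected transcriptomes and chromatin maps across mouse blood cell types. The libraries used here held total RNA of peripheral blood cells (C57BL6 mice, adult), 2 libraries of monocytes and 2 of neutrophils, with no mutant allele or treatment named in the labels. Monocytes (Gr-1+Mac-1+ by the labels, Ly6g- and CD11b+ in the study's sample list) were sorted from the mononuclear layer of a Ficoll gradient. Neutrophils were taken from its pellet after lysis of red cells, and the study's list gives no sort for them. The study describes male mice, and its replicates as separate groups of mice or separate aliquots from the sorter, so the p-values below measure only the spread between these libraries, which may be partly technical.

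Translation of most mRNAs begins when eIF4E binds the cap, eIF4G bridges it to the ribosome and the helicase eIF4A opens the leader. The small ribosomal subunit, loaded with eIF3, eIF1, eIF1A, eIF5 and the initiator tRNA held by eIF2, then scans to the start codon, and eIF5B joins the large subunit. eEF1A delivers each later tRNA and eEF2 moves the ribosome on. The pathway is held back at a pair of well-known points. The 4E-BPs block eIF4E until mTORC1 phosphorylates them, and the eIF2 kinases phosphorylate eIF2 alpha under stress, which stops eIF2B from recharging eIF2 and is the core of the integrated stress response. Mature neutrophils are short-lived cells that leave the marrow with many of their proteins already made.

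The 4 libraries held 20549572 to 26076261 expected counts (read numbers as estimated by RSEM, which divides a read that fits several genes between them). The 10 monocyte markers summed to 4852 and 4773 CPM (expected counts scaled to a library of 1000000) in the monocyte libraries against 415 and 406 in the neutrophil libraries. The 10 neutrophil markers summed to 327 and 357 CPM in the monocyte libraries against 7700 and 7879. Of these markers, 9 were called higher in neutrophils and 1 higher in monocytes by the edgeR test used below. Camp and Ly6g were at 0 in both monocyte libraries. Markers of other cells differed too. The 10 natural killer cell markers summed to 2664 and 2679 CPM in the monocyte libraries and to 28.3 and 28.7 in the neutrophil libraries. The 10 B cell markers ran the other way, at 380 and 476 CPM in the monocyte libraries against 3165 and 3086. T cell markers gave 28.9 and 37.9 CPM against 179 and 192, and 9 red cell markers gave 6237 and 6643 against 8106 and 8679. The 10 platelet markers gave 49.1 and 49.4 CPM against 93.5 and 106. Xist, made from the inactive X chromosome, had 5088 and 4878 counts in the neutrophil libraries and 0 in each monocyte library. The Y-linked Uty had 809 to 1416 counts in all 4, so the neutrophil libraries held Xist and Y-linked RNA together. The study describes male mice. Any difference in sex between the groups cannot be told apart from cell type in the comparisons below. The X-linked genes reported include Eif1ax, Ddx3x, Gspt2 and Rps6ka3. The part of these other cells in the differences below was not tested, and in bulk RNA fewer cells of a type and less RNA per cell cannot be told apart. The replicates of monocytes also differed more than those of neutrophils, with a biological coefficient of variation over genes of 46.2% against 14.7%.

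Promoter sequences are shown first for members whose level differed and that carried a word known from growth or immune control. Of the members, 49 had a RefSeq promoter, taken as the 250 bases before and 50 after a transcript start on GRCm38.p6. The words were chosen after the values were known, and a match is a description of the letters, not a site. The E-box CACGTG, which reads the same on both strands and is the word bound by MYC and USF, stood in 12 of the 49 against 8.09% of all 27025 genes with a promoter (7.15% of 32851 promoters). It was found in 7 of 23 members that were higher in monocytes, in 0 of 6 that were higher in neutrophils and in 5 of 19 with no call. These lines give the strand of the gene, 5′ to 3′, with the E-box in capitals.

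Eif4a1, chr11:69672595-69672624, minus strand: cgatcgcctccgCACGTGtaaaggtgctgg
Eif4e, chr3:138527192-138527221, plus strand: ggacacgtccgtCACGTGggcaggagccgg
Eif4h, chr5:134639488-134639517, minus strand: cggccgccgcacCACGTGggccgcagagcg
Eif5a, chr11:69921443-69921472, minus strand: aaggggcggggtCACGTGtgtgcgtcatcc

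The ETS word CCGGAAG, searched on both strands, stood in 17 of the 49 promoters against 9.93% of genes, and here the shares were 8 of 23, 2 of 6 and 7 of 19. The word of interferon-stimulated genes, GAAANNGAAA on either strand, stood in 3 of the 49 against 3.99% of genes. In the same order of calls these were 2 of 23, 1 of 6 and 0 of 19. Eif2s1 and Eif3a were higher in monocytes, and Eif2ak2, the gene of the double-stranded RNA kinase PKR, was higher in neutrophils. The TATA word TATAAA, on either strand, stood in 4 of the 49 against 15.7% of genes, the only one of the words searched below its share of all genes. The windows of Eif4ebp2, a 4E-BP, and of Eif2ak2 are given because both genes were higher in neutrophils, with the word in capitals as it reads on the strand of the gene.

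Eif4ebp2, chr10:61452775-61452804, minus strand: gccttcgaccgCTTCCGGtagtcatcgttg
Eif2ak2, chr17:78882535-78882564, minus strand: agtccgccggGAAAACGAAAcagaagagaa

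Of the 62 members with enough counts to test, 29 (46.8%) were higher in monocytes and 8 (12.9%) were higher in neutrophils at an adjusted p under 0.05 (edgeR quasi-likelihood test, Benjamini-Hochberg over 14309 genes). The background was 20.8% of all genes tested for higher in monocytes and 21.8% for higher in neutrophils. Among protein-coding genes alone it was 23.4% and 22.4%. The share of members higher in monocytes was thus above the background, and the share higher in neutrophils was below it. The median log2 fold change of the members, monocyte over neutrophil, was 0.50, against −0.06 over all genes tested and −0.02 over protein-coding genes. Summed over all members, the level was 12995 and 12864 CPM in the monocyte libraries against 9452 and 9526 in the neutrophil libraries.

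**Figure D1:**
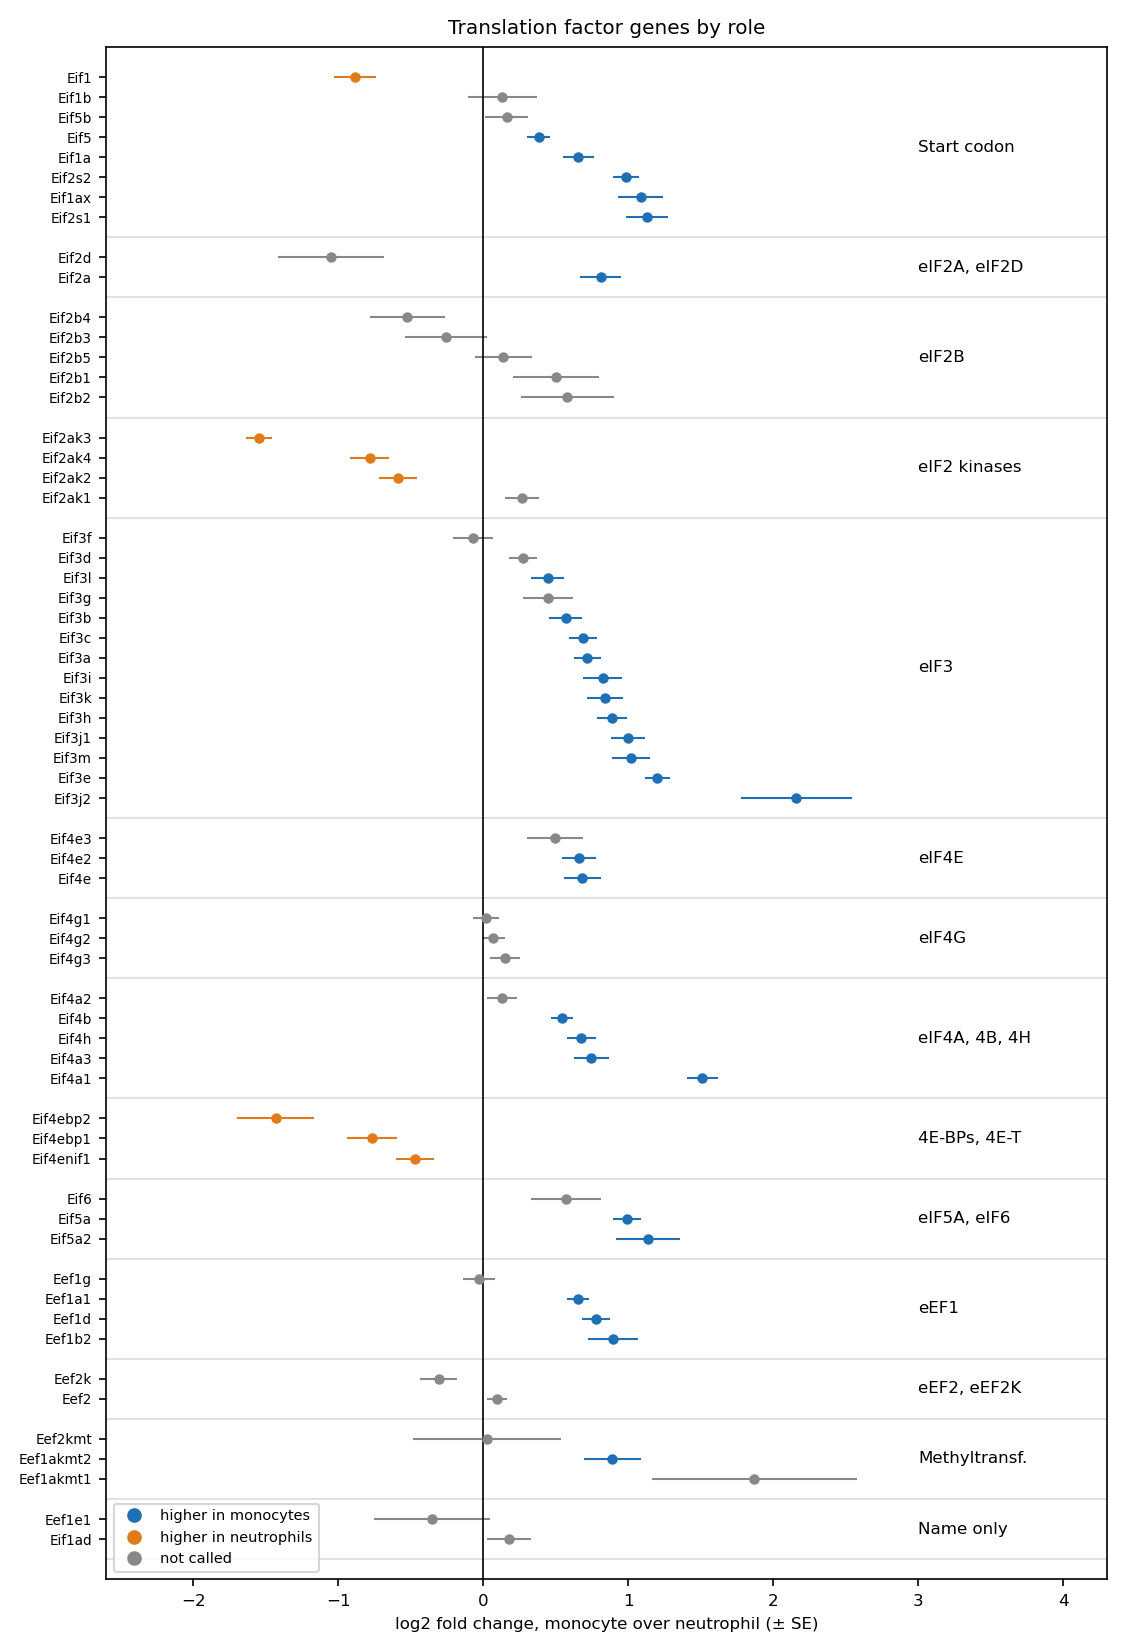
Log2 fold change (monocyte over neutrophil, with its standard error) of each tested member except Eif4ebp3, grouped by role, and coloured by the edgeR call. Subunits of eIF3 lie almost wholly to the right of 0, from −0.07 to 2.16, while Eif4ebp2, Eif4ebp1 and Eif4enif1 and all but one of the eIF2 kinases lie to the left. Eif4ebp3 is not drawn because it had no count in monocytes.

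A larger share of the calls for neutrophils than of those for monocytes was lost when a neutrophil library was left out. With neutrophil replicate 1 left out, 20 members were higher in monocytes and 3 in neutrophils, and with neutrophil replicate 2 left out the counts were 22 and 3. Without monocyte replicate 1 they were 35 and 11, and without monocyte replicate 2 they were 35 and 9. Each such fit compares 1 library of a group with 2 of the other and takes its spread from that pair. Without a neutrophil library the pair was the monocytes, whose replicates differed more (46.2% against 14.7%). A call lost there cannot be read as dependence on 1 library. No member with a call changed sign in these fits. The log2 fold change of Eif4e was 0.70 without neutrophil replicate 1 and 0.67 without replicate 2, and that of Eif2ak2 was −0.66 and −0.51. Over the alternatives in which each was fitted, 19 of the 29 calls for monocytes were made every time, and 1 of the 8 for neutrophils, Eif2ak3.

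Of the 4 eIF2 kinases, 3 were higher in neutrophils, against a background of 22.4% of protein-coding genes, and this rests on few genes. Their median log2 fold change was −0.69, and the call of Eif2ak3 alone among them held in every alternative. Eif2ak3 (chromosome 6, 70844515 to 70905245) encodes PERK, the kinase that senses unfolded protein in the endoplasmic reticulum. It stood at 69.2 and 72.2 CPM in the monocyte libraries and at 205 and 209 CPM in the neutrophil libraries. The groups lay far apart and each pair of replicates nearly coincided. The log2 fold change was −1.55 ± 0.09 (SE), 2.92-fold higher in neutrophils (edgeR adjusted p = 0.000146). Eif2ak4 encodes GCN2, which senses uncharged tRNA, and was at 25.2 and 24.4 CPM against 40.5 and 44.9. Its groups did not overlap, and the log2 fold change was −0.79 ± 0.14 (edgeR adjusted p = 0.00701). The call of Eif2ak4 was lost without neutrophil replicate 2, on TPM and with a length offset, and over its alternatives the adjusted p ran from 0.000490 to 0.165.

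Eif2ak2 (PKR, the sensor of double-stranded RNA whose promoter window is printed above) had 33.4 and 36.8 CPM in monocytes and 50.2 and 55.4 in neutrophils. The log2 fold change was −0.59 ± 0.13 (edgeR adjusted p = 0.0173). The call of Eif2ak2 was lost without either neutrophil library, and over its alternatives the adjusted p ran from 0.00295 to 0.557. Nor was it made on TPM (a level corrected for transcript length), where the libraries overlapped at 2.17 and 4.42 in monocytes and 3.74 and 4.35 in neutrophils. Eif2ak1 encodes HRI, the haem-regulated kinase of red cell precursors, and was the exception. The kinase was at 84.8 and 72.5 CPM in monocytes against 67.4 and 63.4, a log2 fold change of 0.26 ± 0.12 that did not pass the test (edgeR adjusted p = 0.131).

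Within each library, PERK mRNA made up a different part of the kinase pool. Per transcript length, Eif2ak3 was 32.9% and 25.4% of the TPM of the 4 kinases in monocytes and 55.1% and 55.0% in neutrophils. HRI was on the other side, at 40.5% and 30.1% against 17.0% and 15.8%.

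The substrate of these kinases moved the opposite way. Eif2s1, eIF2 alpha, had 68.6 and 81.6 CPM in monocytes and 32.3 and 36.3 in neutrophils. Every monocyte library was above every neutrophil library, with a log2 fold change of 1.13 ± 0.14 (edgeR adjusted p = 0.00230), the largest among the start codon factors. Eif2s2, eIF2 beta, rose in step, with 138 and 139 CPM against 68.7 and 71.0 (log2 fold change 0.99 ± 0.09, edgeR adjusted p = 0.000682). As a ratio of TPM within each library, the 4 kinases together stood at 2.53 and 2.80 per Eif2s1 in monocytes and at 10.6 and 10.1 in neutrophils.

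None of the 5 genes of eIF2B, the exchange factor that recharges eIF2, passed the test. Eif2b2, the member of highest TPM, had 15.6 and 26.7 CPM in monocytes and 12.02 and 16.4 in neutrophils, and these values overlapped (log2 fold change 0.58 ± 0.32). The other fold changes were 0.50 ± 0.30 for Eif2b1, 0.14 ± 0.20 for Eif2b5, −0.26 ± 0.28 for Eif2b3 and −0.52 ± 0.26 for Eif2b4. These standard errors are wide beside the changes. Exons of Eif2b4 also overlap those of Snx17 on the other strand.

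**Figure D2:**
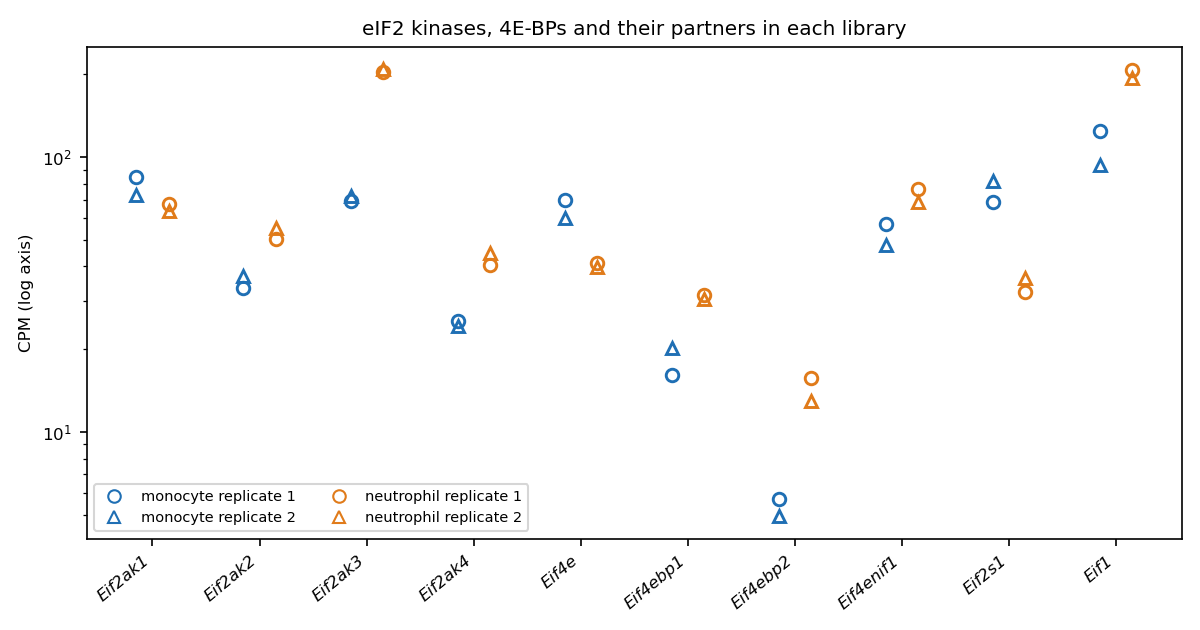
CPM (log axis) in each library of the 4 eIF2 kinases, Eif2s1, Eif4e, Eif4ebp1, Eif4ebp2, Eif4enif1 and Eif1, with circles for replicate 1 and triangles for replicate 2. Eif2ak3 stands at 205 and 209 CPM in neutrophils against 69.2 and 72.2 in monocytes, while Eif2s1 and Eif4e are higher in the monocyte libraries.

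All 4 genes of the 4E-BP group, whose products bind eIF4E, were called higher in neutrophils. The background was 22.4% of protein-coding genes, and the group is small. Its median log2 fold change was −1.10, also with Eif4ebp3 at its bound below. Eif4ebp2 (chromosome 10, 61428491 to 61452661) encodes a 4E-BP best known from neurons. It had 5.68 and 4.93 CPM in monocytes and 15.7 and 12.9 in neutrophils. These levels are low but well apart, and the log2 fold change was −1.43 ± 0.26 (edgeR adjusted p = 0.00876). Without neutrophil replicate 1 the call was lost, and over the alternatives the adjusted p ran from 0.000476 to 0.104.

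Eif4ebp1, the most abundant 4E-BP and a main target of mTORC1, was at 16.1 and 20.2 CPM in monocytes against 31.4 and 30.4 in neutrophils. The groups did not overlap, and the log2 fold change was −0.77 ± 0.17 (edgeR adjusted p = 0.0178). The call of Eif4ebp1 was lost without neutrophil replicate 1 or 2, and over its alternatives the adjusted p ran from 0.000884 to 0.128.

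Eif4ebp3 was not seen in monocytes (0 counts in each library), while neutrophils gave 13.1 and 15.7 expected counts. A floor of 3 counts for both monocyte libraries together puts it at least 11.7-fold higher in neutrophils, which covers counting error only. Reads of Eif4ebp3 could be assigned only loosely, with a coefficient of variation of the assignment of up to 152%, and the adjusted p of 0.0243 (edgeR) became 0.0749 with RSEM's posterior mean counts. The call was also lost with no filter and without either neutrophil library, and over the alternatives the adjusted p ran from 0.0175 to 0.330.

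Eif4enif1 encodes 4E-T, which carries eIF4E into the nucleus and into processing bodies. It had 57.2 and 47.7 CPM in monocytes and 76.5 and 68.9 in neutrophils, a log2 fold change of −0.47 ± 0.13 (edgeR adjusted p = 0.0350). This direction depended on transcript length. As TPM the libraries overlapped, at 6.73 and 7.86 in monocytes against 7.06 and 6.18 in neutrophils, and with an offset for effective length the log2 fold change of Eif4enif1 was 0.09 (edgeR adjusted p = 0.716, the highest of its alternatives, with 0.00369 the lowest). Its call was also lost without either neutrophil library.

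The cap-binding proteins themselves were on the monocyte side. Eif4e, the cap-binding factor with an E-box in the window shown, had 70.0 and 60.0 CPM in monocytes against 41.1 and 39.9 in neutrophils, a log2 fold change of 0.68 ± 0.13 (edgeR adjusted p = 0.00909). The call was lost without either neutrophil library. Eif4e2, or 4EHP, which binds the cap but not eIF4G and represses chosen mRNAs, had 94.3 and 111 CPM against 63.7 and 65.9. Its log2 fold change of 0.66 ± 0.12 was close to that of Eif4e (edgeR adjusted p = 0.00817), and the call was lost without neutrophil replicate 1. Eif4e3 had 32.2 and 24.4 CPM against 21.4 and 18.8, with a log2 fold change of 0.49 ± 0.19 that did not pass (edgeR adjusted p = 0.0901). Eif4e3 shares exons on the same strand with Gm20696, which had 316 and 376 counts in monocytes and 1524 and 1409 in neutrophils. Per length, Eif4e2 was the highest of these in every library, at 2.54 and 3.43 times the TPM of Eif4e in monocytes and 2.83 and 3.12 times in neutrophils. Eif4e1b, an eIF4E of the oocyte, had 0 counts in all 4 libraries.

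The balance of blocker and blocked therefore differed between the libraries at the RNA level. The TPM of Eif4ebp1, Eif4ebp2 and Eif4ebp3 summed to 0.910 and 1.26 times that of Eif4e in monocytes and to 3.25 and 3.15 times in neutrophils. No test was run on these ratios, since 2 libraries a group give an exact permutation test too few arrangements to reach 0.05. Their phosphorylation, on which their binding depends, was not measured.

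**Figure D3:**
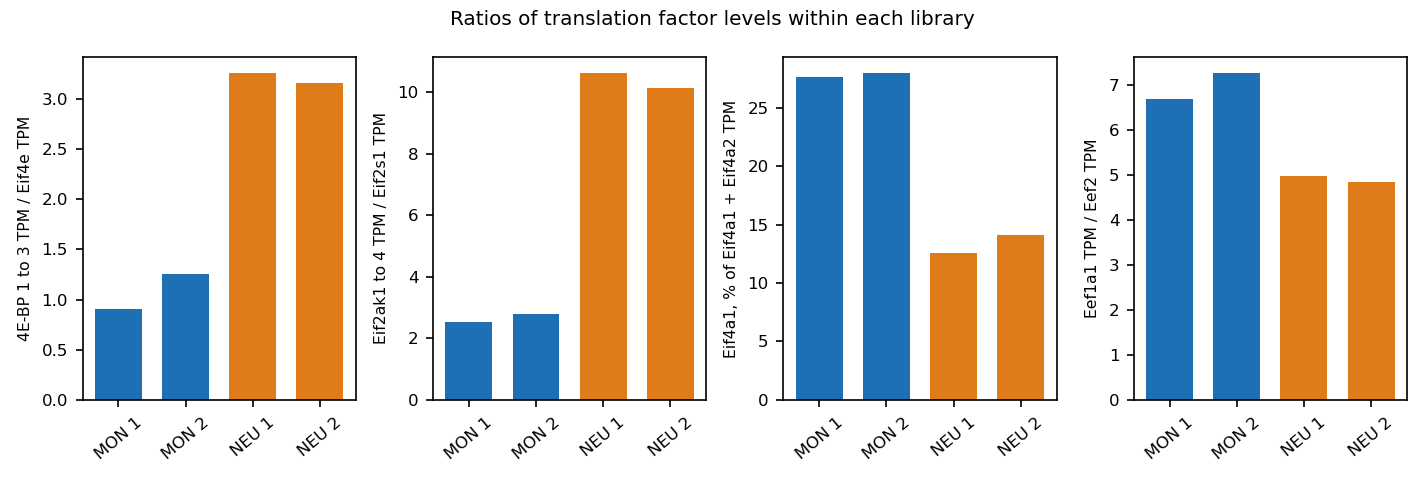
Ratios of TPM within each library (MON, monocyte; NEU, neutrophil; bars are single libraries). The 4E-BPs per Eif4e and the eIF2 kinases per Eif2s1 are higher in both neutrophil libraries, and the share of Eif4a1 in Eif4a1 plus Eif4a2 and the ratio of Eef1a1 to Eef2 are higher in both monocyte libraries.

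The 3 eIF4G scaffolds, which link cap, helicase and ribosome, were at nearly the same CPM in all libraries. Eif4g2, also called DAP5, was the highest of them per length and had 484 and 441 CPM in monocytes against 450.5 and 431 in neutrophils. Eif4g1 had 230.1 and 203 against 215 and 212, and Eif4g3 had 192 and 164 against 164 and 158. Values of all 3 overlapped between the groups. The log2 fold changes were 0.07 ± 0.08 for Eif4g2, 0.02 ± 0.09 for Eif4g1 and 0.15 ± 0.10 for Eif4g3, and none passed the test.

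The helicase partners of the scaffolds were not so even. Eif4a1 (chromosome 11, 69666936 to 69672423), the main eIF4A of dividing cells, had 515 and 464 CPM in monocytes against 159 and 184 in neutrophils. This was the largest fold among members above 100 CPM in every library, a log2 fold change of 1.51 ± 0.11 or 2.85-fold (edgeR adjusted p = 0.000330). Its close relative Eif4a2, the more abundant of the pair, had 1085 and 904 CPM in monocytes and 908 and 912 in neutrophils. These overlapped, with a log2 fold change of 0.13 ± 0.10 (edgeR adjusted p = 0.374). Eif4a1 was accordingly 27.6% and 27.9% of the TPM of the pair in monocytes and 12.6% and 14.1% in neutrophils.

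A processed copy of the Eif4a1 gene, Eif4a-ps4, was listed with 2277 and 2469 counts in monocytes and 467 and 395 in neutrophils, and reads of a gene and such a copy are hard to separate. With the copy added to Eif4a1, the log2 fold change was 1.60 (edgeR adjusted p = 0.000190, against a range of 1.54e-39 to 0.00393 over all its alternatives). Several snoRNA genes lie inside Eif4a1 and Eif4a2 on the same strand, and in all 17 snoRNAs lie inside 9 members. Other genes of the group of eIF4A helicases and their cofactors followed Eif4a1 less strongly. Eif4a3, a helicase of the exon junction complex, rose in monocytes by 0.74 ± 0.12 on the log2 scale, Eif4h by 0.68 ± 0.10 and Eif4b by 0.54 ± 0.07. The products of Eif4h and Eif4b stimulate eIF4A. The call of Eif4a3 was lost without neutrophil replicate 1 and with a length offset.

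The scaffold eIF3, the largest initiation factor, was the most one-sided of the larger groups. Of its 14 genes, 11 were higher in monocytes and none was higher in neutrophils, with a median log2 fold change of 0.77. The background was 23.4% of protein-coding genes for higher in monocytes and 22.4% for higher in neutrophils. Eif3e (chromosome 15, 43250058 to 43282719) had the highest level per length in every library. It was at 257 and 257 CPM in monocytes against 117 and 107 in neutrophils, a log2 fold change of 1.20 ± 0.08 (edgeR adjusted p = 0.000292). Replicates were close and the groups far apart.

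The largest fold of the group belonged to Eif3j2, a relative of Eif3j1 on chromosome 18, with 34.5 and 18.4 CPM in monocytes against 7.15 and 4.65. The monocyte replicates differed widely but stayed above both neutrophil libraries, and the log2 fold change was 2.16 ± 0.38 (edgeR adjusted p = 0.00772). The assignment of its reads had a coefficient of variation of up to 17.0%, so its split from Eif3j1 is uncertain. Eif3j1 had 70.9 and 75.3 CPM against 35.4 and 37.8, a log2 fold change of 0.998 ± 0.117 (edgeR adjusted p = 0.00165). The product of these genes, eIF3j, sits loosely on the complex near the mRNA channel. Eif3j2 was 53.7% and 34.9% of the TPM of the pair in monocytes and 27.1% and 18.6% in neutrophils.

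Subunits of the octameric core rose by different amounts. On the log2 scale the change was 1.02 ± 0.13 for Eif3m, 0.89 ± 0.10 for Eif3h, 0.84 ± 0.12 for Eif3k, 0.72 ± 0.09 for Eif3a, 0.69 ± 0.09 for Eif3c and 0.44 ± 0.11 for Eif3l. The call of Eif3l was lost without either neutrophil library. Of the module of subunits b, g and i, Eif3i rose by 0.82 ± 0.14 and Eif3b by 0.57 ± 0.11, and the call of Eif3b was lost without either neutrophil library. Values of Eif3d at 0.27 ± 0.10, Eif3g at 0.44 ± 0.17 and Eif3f at −0.07 ± 0.14 did not pass (edgeR adjusted p of 0.0755, 0.0923 and 0.721). Libraries of Eif3f overlapped, at 52.6 and 60.3 CPM in monocytes and 55.1 and 63.3 in neutrophils. How often the groups stay apart over all genes was not counted, so a lack of overlap says little by itself.

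**Figure D4:**
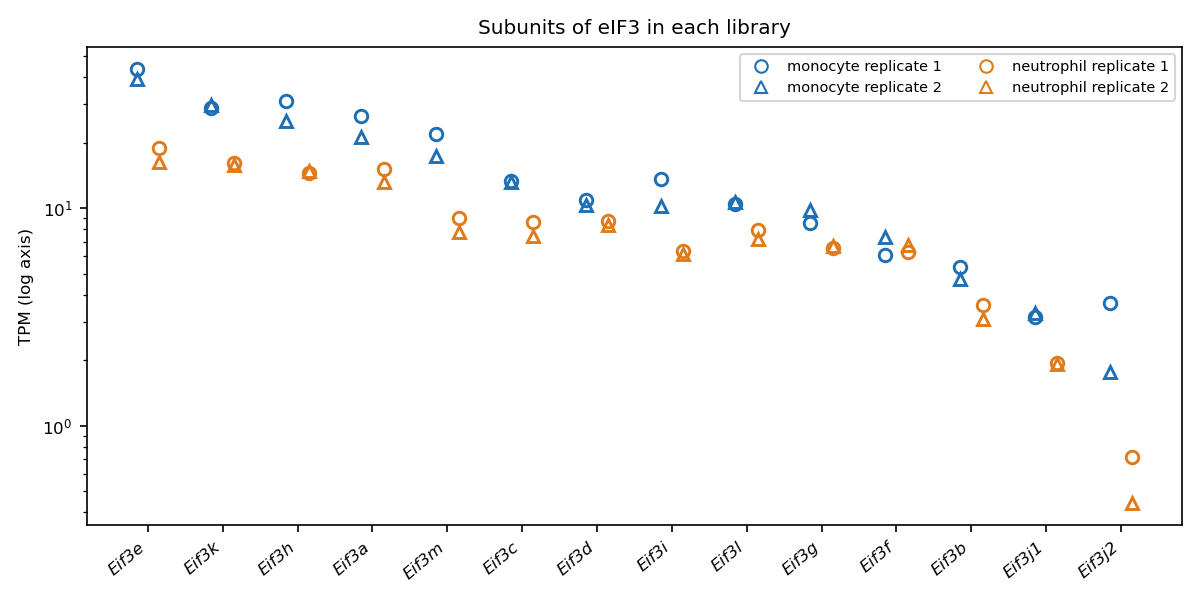
TPM (log axis) of the 14 eIF3 genes in each library, ordered by their mean, with circles for replicate 1 and triangles for replicate 2. Eif3e is highest in every library, Eif3j2 falls to 0.44 TPM in neutrophil replicate 2, and the groups overlap at Eif3f.

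The levels of eIF3 genes within a library were far from equal although most subunits are present once per complex. In TPM they ran from 3.15 for Eif3j1 to 43.8 for Eif3e in monocyte replicate 1, and from 0.44 for Eif3j2 to 16.4 for Eif3e in neutrophil replicate 2. The median subunit was at 12.1 and 10.5 TPM in monocytes and at 8.31 and 7.34 in neutrophils.

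Of the factors that read the start codon, 5 of 8 were higher in monocytes, and Eif1 alone was higher in neutrophils. The background was 23.4% and 22.4% of protein-coding genes, and 8 genes are few. Eif1, which keeps the scanning ribosome from pairing at wrong codons, had 124 and 93.3 CPM in monocytes against 208 and 194 in neutrophils. The groups did not overlap, and the log2 fold change was −0.89 ± 0.15 (edgeR adjusted p = 0.00595). On TPM the direction stayed but the test did not pass, with 52.0 and 35.4 in monocytes and 65.3 and 60.4 in neutrophils (limma on log2(TPM + 1), adjusted p = 0.106, against a range of 1.08e-07 to 0.110 over all its alternatives). Its relative Eif1b had 21.02 and 14.4 CPM against 16.5 and 15.8, with a log2 fold change of 0.13 ± 0.24 (edgeR adjusted p = 0.697).

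Eif5, which triggers hydrolysis of GTP on eIF2 at the start codon and works against eIF1, had 341 and 353 CPM in monocytes against 274 and 258. Its log2 fold change was 0.38 ± 0.08 (edgeR adjusted p = 0.0128), and the call was lost without either neutrophil library. Eif1 stood at 2.10 and 1.55 times the TPM of Eif5 in monocytes and at 4.03 and 4.22 times in neutrophils.

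The genes of eIF1A changed together. Eif1ax on the X chromosome had 60.8 and 73.9 CPM in monocytes against 29.5 and 34.0, a log2 fold change of 1.08 ± 0.16 (edgeR adjusted p = 0.00366). Its autosomal copy Eif1a had 74.3 and 76.6 against 47.0 and 48.8, a log2 fold change of 0.65 ± 0.11 (edgeR adjusted p = 0.00550) that lost its call without neutrophil replicate 1. Eif1ax is X-linked, and Xist had counts in the neutrophil libraries alone. Whether this has any part in the difference of Eif1ax was not tested. Eif5b, the factor of subunit joining, had a log2 fold change of 0.16 ± 0.15 and overlapping libraries.

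The factors of unusual starts parted. Eif2a, an eIF2-independent carrier of initiator tRNA, had 53.5 and 51.0 CPM in monocytes against 32.6 and 27.1, a log2 fold change of 0.81 ± 0.14 (edgeR adjusted p = 0.00722), and its call was lost without neutrophil replicate 2. Eif2a overlaps exons of the more abundant Serp1 on the other strand. Eif2d, also known as ligatin, had 4.37 and 8.18 CPM against 12.6 and 13.4. Its groups did not overlap, but the log2 fold change of −1.05 ± 0.37 missed the threshold (edgeR adjusted p = 0.0676). With DESeq2 the adjusted p of Eif2d was 0.0482, and over all its alternatives it ran from 0.000617 to 0.242.

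eIF5A carries the rare amino acid hypusine and frees stalled ribosomes. Eif5a had 143 and 133 CPM in monocytes against 66.8 and 71.9. The log2 fold change was 0.99 ± 0.10 (edgeR adjusted p = 0.000947). Its paralogue Eif5a2 had 16.8 and 16.1 CPM against 7.12 and 7.83, a log2 fold change of 1.14 ± 0.22 (edgeR adjusted p = 0.0107), and this call was lost without either neutrophil library. The pair moved alike, and Eif5a2 remained a small part of it, at 2.39% to 2.83% of their TPM in the 4 libraries. Eif6, which keeps the large subunit from joining too early, had a log2 fold change of 0.57 ± 0.24 that did not pass (edgeR adjusted p = 0.116).

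The most abundant member was an elongation factor. Eef1a1 (chromosome 9, 78478449 to 78489151), which brings tRNA to the ribosome, was first by TPM in every library and held 29.3% to 35.5% of all counts of the members. It had 4201 and 4572 CPM in monocytes against 2769 and 2813 in neutrophils, a log2 fold change of 0.65 ± 0.08 (edgeR adjusted p = 0.00177). Eef1a2, its form in muscle and neurons, had 0 counts in all 4 libraries. Many processed copies of Eef1a1 exist in the genome, so that its reads may be shared with them.

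The subunits of the complex that recharges eEF1A split. Eef1b2, the alpha exchange subunit, had 491 and 347 CPM in monocytes against 217 and 234, a log2 fold change of 0.89 ± 0.17 (edgeR adjusted p = 0.00992). Its monocyte replicates were uneven, as were the counts of Ndufs1, whose exons it overlaps on the other strand, at 3163 and 1704 in monocytes and 1583 and 1509 in neutrophils. Eef1d rose by 0.78 ± 0.10 on the log2 scale. The gamma subunit Eef1g had overlapping libraries, with 199.8 and 218 CPM against 197 and 229 (log2 fold change −0.03 ± 0.11).

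Eef2, the translocase, was at 1257 and 1267 CPM in monocytes and 1179 and 1184 in neutrophils. The groups did not overlap, yet the log2 fold change was only 0.09 ± 0.07 (edgeR adjusted p = 0.334). Its inhibitor kinase Eef2k, at −0.31 ± 0.13, did not pass either (edgeR adjusted p = 0.108). Eef1a1 was 6.69 and 7.26 times as abundant as Eef2 in TPM in monocytes and 4.98 and 4.85 times in neutrophils.

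Among the enzymes that methylate elongation factors, Eef1akmt2 was higher in monocytes, at 17.9 and 20.1 CPM against 10.4 and 10.1, with a log2 fold change of 0.89 ± 0.20 (edgeR adjusted p = 0.0167). That call was lost without either neutrophil library. Eef1akmt1 had a fitted log2 fold change of 1.87 ± 0.71 at no more than 4.60 CPM in any library and did not pass, and Eef2kmt had 0.02 ± 0.51. Eef1akmt3 was not tested, with 4 and 1 counts in neutrophils and 0 in each monocyte library. The remaining pair share only the name. Eef1e1 belongs to the complex of tRNA synthetases, with 10.3 and 5.01 CPM against 9.75 and 9.83, and Eif1ad had 26.1 and 23.4 CPM against 22.2 and 21.6. Neither passed the test.

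Other genes of the pathway, taken from a list of 59 with 58 entries found and 57 tested, were split evenly. Of these, 13 were higher in monocytes and 13 higher in neutrophils, with a median log2 fold change of −0.04. Both shares are near the background of 23.4% and 22.4% of protein-coding genes. The counts in the smaller groups of this list, given below, stand beside the same background and rest on few genes. Without neutrophil replicate 1 or 2 the genes higher in neutrophils numbered 5 and 6. The 81 tested genes of cytosolic ribosomal proteins were closer to the factors, with 65 higher in monocytes, 1 higher in neutrophils and a median of 0.70, beside the same background.

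Targets and brakes of the integrated stress response were mixed, with 3 of 9 tested genes higher in each group. The background was 23.4% and 22.4% of protein-coding genes. Atf4, the transcription factor translated when eIF2 alpha is phosphorylated, had 301 and 310.4 CPM in monocytes against 183 and 195, a log2 fold change of 0.70 ± 0.08 (edgeR adjusted p = 0.00175). Of Chac1, Sesn2, Asns, Ddit3 and Trib3, all known as ATF4 targets, Chac1 and Sesn2 were called. Both were higher in neutrophils and so opposite to Atf4. Chac1, an enzyme that breaks down glutathione, had no count in monocytes and 10.8 and 10.7 CPM in neutrophils. With the same floor of 3 counts it was at least 184-fold higher there. Sesn2, a leucine sensor that restrains mTORC1, had 8.94 and 7.20 CPM against 39.4 and 43.1, a log2 fold change of −2.35 ± 0.18 (edgeR adjusted p = 0.000390). Asns and Ddit3 did not pass, at −0.77 ± 0.73 and 0.21 ± 0.17. Trib3 was not tested, with 1 count over the monocyte libraries and 39 over the neutrophil libraries, a ratio of CPM of 47.7 (95% exact interval 8.07 to 1932).

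The phosphatase subunits that undo the kinases' work went opposite ways. Ppp1r15b, the constitutive one, rose in monocytes by 0.68 ± 0.08 on the log2 scale, and Ppp1r15a (GADD34), the inducible one, had a log2 fold change of −0.45 ± 0.11 (edgeR adjusted p = 0.0232) that lost its call without either neutrophil library. Impact, an inhibitor of GCN2, had 54.0 and 72.4 CPM in monocytes against 23.5 and 22.1 in neutrophils. Its log2 fold change of 1.47 ± 0.18 was opposite in sign to that of Eif2ak4, the kinase it restrains (edgeR adjusted p = 0.00198). Nck1, an adaptor in the same pathway, was at 0.10 ± 0.11.

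Upstream of the 4E-BPs, Mtor had 45.1 and 38.2 CPM in monocytes against 64.7 and 60.4, a log2 fold change of −0.59 ± 0.13 (edgeR adjusted p = 0.0170), and its call was lost on TPM and without either neutrophil library. Its activator Rheb had 54.0 and 57.8 against 28.6 and 28.3, a log2 fold change of 0.97 ± 0.12 (edgeR adjusted p = 0.00217). The kinase and its activator thus differed in opposite directions. Rptor, Mlst8, Tsc1, Tsc2 and Akt1s1 did not pass, with log2 fold changes from −0.79 to −0.10. The MNK kinases, which phosphorylate eIF4E on eIF4G, were both higher in neutrophils. Mknk1 had a log2 fold change of −0.77 ± 0.10 and Mknk2 one of −0.91 ± 0.13 (edgeR adjusted p of 0.00227 and 0.00389). Rps6ka1, an RSK kinase, rose in monocytes by 1.17 ± 0.10, while Rps6kb1 at −0.19 ± 0.11, Rps6kb2 at −0.32 ± 0.18 and Rps6ka3 at 0.48 ± 0.21 did not pass.

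Of 9 genes of termination and recycling, 4 were higher in monocytes and 0 in neutrophils, and of these 4 calls only that of Etf1 held in every alternative run. Etf1, the release factor that reads stop codons, had 317 and 338 CPM against 97.9 and 102 (log2 fold change 1.71 ± 0.09, edgeR adjusted p = 0.000103), and its partner Gspt1 was at 0.06 ± 0.12. Gspt2, an intronless relative of Gspt1, had 110 counts over the monocyte libraries and 2 over the neutrophil libraries, a ratio of CPM of 44.95 (95% exact interval 12.2 to 376), and its edgeR call was lost without monocyte replicate 2 or either neutrophil library. Of 8 genes that make hypusine or diphthamide, the modified residues of eIF5A and eEF2, 1 was higher in monocytes and 3 in neutrophils. The one higher in monocytes was Dph3, at 0.62 ± 0.14 (edgeR adjusted p = 0.0173). Dph6 had 4.68 and 3.29 CPM in monocytes against 12.2 and 11.9, a log2 fold change of −1.60 ± 0.31 (edgeR adjusted p = 0.0110). Dph2 had 4.33 and 2.23 against 8.41 and 8.71, at −1.38 ± 0.43 (edgeR adjusted p = 0.0484), and Dph5 was at −1.22 ± 0.22 (edgeR adjusted p = 0.00761). The calls of Dph2, Dph3, Dph5 and Dph6 were all lost without either neutrophil library. Dph1 at −0.08 ± 0.59 and Dph7 at −0.23 ± 0.39 did not pass. Dhps and Dohh, which make hypusine, did not pass.

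Among 10 genes of proteins that bind mRNA or other initiation components, monocytes had the higher level of 3 and neutrophils of 2. These shares were not far from the background of 23.4% and 22.4% of protein-coding genes. Pdcd4, an inhibitor of eIF4A, had 272 and 213 CPM in monocytes against 117 and 116, a log2 fold change of 1.05 ± 0.13 (edgeR adjusted p = 0.00203), and the call held in all 7 alternatives run. The direction of this inhibitor was that of Eif4a1 and not that of the 4E-BPs. Ddx3x, a helicase, rose in monocytes by 1.01 ± 0.09 and Abcf1 by 0.64 ± 0.09. The poly(A)-binding proteins Pabpc1 and Pabpc4 were higher in neutrophils, at −0.60 ± 0.09 and −0.53 ± 0.15, and the call of Pabpc4 was lost on TPM and without either neutrophil library. Of 8 genes of mitochondrial translation and selenocysteine decoding, 0 were higher in monocytes and 2 in neutrophils, Gfm2 at −0.88 ± 0.15 and Mtif3 at −1.06 ± 0.23. The call of Gfm2 was lost on TPM and without neutrophil replicate 1, and that of Mtif3 without either neutrophil library.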

How the data were processed

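Total RNA, depleted of ribosomal RNA, was copied into stranded libraries by tagged random priming and PCR, with no molecular identifiers, per the labels. The authors aligned reads to mm10 with STAR and estimated gene levels with RSEM, and no source used here gives the strand setting of RSEM. The deposited files give RSEM expected counts, posterior mean counts (a second set of expected counts) with their standard deviation, effective lengths, and TPM as scaled by the authors' RSEM run. Gene identifiers were matched to the GENCODE annotation of GRCm38 (42462 of 43346, 98.0%). A further 96 spike-in entries and transcript names without a gene identifier were left out.

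Groups came from the labels' descriptions. Expected counts were rounded and tested with edgeR 4.0.16 (TMM factors 0.9936 to 1.005, filterByExpr, quasi-likelihood F test, R 4.3.3), with Benjamini-Hochberg adjustment over 14309 genes and a threshold of 0.05. The standard error is the fold change divided by the root of F. CPM is the expected count divided by the library's gene total and multiplied by 1000000. CPM was used to compare a gene between libraries, and TPM to compare genes. The script was tested on simulated data. Intervals, floors and bounds cover counting error only. Alternatives were DESeq2 1.42.0, limma 3.58.1 on log2(TPM + 1) and log2(TPM + 0.1) for genes of 1 TPM or more in 2 libraries, other scalings, filters and counts, an effective length offset, and each library left out. Values in every library are given for the member of highest mean TPM and the called members of largest fold in each role, for every eIF2 kinase, 4E-BP and eIF4E gene, and for paralogue pairs. Of the other translation genes, the 4 called with the largest fold in each direction and those of mTORC1, MNK and S6 kinases and the stress response are named; others were named after their values were seen. Members, lists, roles and tests were chosen with earlier results of these data known. Replicate numbers follow deposit order.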

Additional observations from a re-analysis of the deposited data

How the results depend on the processing

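Members higher in neutrophils numbered 8 with edgeR on expected counts, 4 with limma on log2(TPM + 1) and on log2(TPM + 0.1), and 5 with an effective length offset. Leaving out each library in turn gave 3 to 11 members higher in neutrophils and 20 to 35 higher in monocytes, and for the other translation genes 5 to 17 and 9 to 19. A fit without a library compares 1 sample with 2 and assumes that the lone sample varies like the rest. The log2 fold change of Eif4enif1 turned from −0.47 to 0.12 with limma on log2(TPM + 1), to 0.14 on log2(TPM + 0.1) and to 0.095 with the length offset, all of which take transcript length into account. No other member with a call changed sign under these settings. DESeq2 size factors, library size alone, and leaving out mitochondrial and the 10 most abundant genes changed no call of a member. The DESeq2 test lost none and added Eif2d. No paired analysis was possible because the replicate numbers follow deposit order and tie no monocyte library to a neutrophil library. With 2 libraries a group, no library could be judged against its own group, and genes of a few counts, such as Eif4ebp3 and Eef1akmt3, were limited by depth.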
